A study of Mus musculus with 9 samples.

Results

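The endoplasmic reticulum (ER) chaperone genes of the unfolded protein response were followed across the 3 groups of a Suz12 degron experiment in mouse embryonic stem cells. The set holds 10 genes given by symbol: Hspa5, Hsp90b1, Calr, Pdia4, Sdf2l1, Dnajc3, Dnajb9, Edem1, Herpud1 and Xbp1. All 10 were found among the 48440 genes of the count tables, and all 10 were among the 20838 genes with enough reads to test. The list is one of ATF6 and XBP1 type targets, and it was set beside genes of the amino acid type of stress response for comparison.

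Every library came from J1 mouse embryonic stem cells of the genotype Suz12-AID, the Mock libraries included. In this line Suz12, a core subunit of Polycomb repressive complex 2, carries a degron that lets auxin (indole-3-acetic acid, IAA) trigger its destruction. The Mock group has no auxin treatment in its label, and the Auxin group received 50 µM auxin for 96 h. The Re-introduction group also received 50 µM auxin for 96 h, followed by a washout of 4.5 h. Each group has 3 biological replicates of polyadenylated RNA, the cells were grown with LIF and 2i inhibitors, and the labels do not say whether the line is 1 clone. No group of cells without the degron treated with auxin was analysed here, so effects of Suz12 loss and of auxin itself cannot be told apart. There was also no group washed without prior auxin. In Re-introduction, effects of a return of Suz12, of auxin removal and of the washout itself therefore cannot be told apart.

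As background, proteins that enter the ER are folded there by chaperones and by enzymes that form disulfide bonds. When unfolded protein accumulates, the sensors ATF6, IRE1 and PERK are activated. Cleaved ATF6 and the spliced form of XBP1 switch on chaperone and ER-associated degradation (ERAD) genes, many of them through a promoter sequence called the ER stress response element (ERSE). PERK phosphorylates the translation factor eIF2alpha, which favours synthesis of ATF4, and the kinase GCN2 (Eif2ak4) does the same when amino acids run short. ATF4 acts on genes of amino acid synthesis and transport, often at a composite site shared with C/EBP factors, so both types of stress raise ATF4 targets whereas the chaperone genes are the part tied to the ER.

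The promoters of the 10 genes carry these elements unequally, and stretches that hold a match are shown. Whether any of the elements had a part in how the genes moved was not tested. Sequences are RefSeq's, from 250 bases before to 50 bases after each start on build GRCm38.p6. They are read 5′ to 3′ on the gene's strand, with the match in capitals. Some genes have several starts, and a gene counted as holding a match if any of its promoters did, whereas percentages are of promoters. The ERSE was searched on both strands as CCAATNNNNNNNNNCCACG and was found in 0.119% of 32851 promoters. It was present in 4 of the 10 genes: Hspa5, Hsp90b1 (at 2 places), Calr and Dnajc3.
Hspa5 (chr2:34772020-34772048, + strand): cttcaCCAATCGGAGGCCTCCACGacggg
Hsp90b1, distal (chr10:86705623-86705671, - strand): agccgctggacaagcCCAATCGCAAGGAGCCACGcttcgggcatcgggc
Hsp90b1, proximal (chr10:86705518-86705566, - strand): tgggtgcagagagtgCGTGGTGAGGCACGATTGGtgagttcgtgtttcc
Calr (chr8:84847060-84847108, - strand): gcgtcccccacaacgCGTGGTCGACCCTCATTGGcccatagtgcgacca
Dnajc3 (chr14:118937812-118937860, + strand): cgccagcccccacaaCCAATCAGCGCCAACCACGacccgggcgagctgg
In the proximal Hsp90b1 and the Calr stretch the element reads on the opposite strand. The Hspa5 match lies before the RefSeq start but inside an exon of the annotation used for counting.

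Herpud1 differed from the other 9 genes in the elements its promoter holds. It has the shorter ERSE-II, searched as ATTGGNCCACG and present in 0.0365% of promoters, and an ATF4-C/EBP composite site, searched as TGATGNAA and present in 3.97% of promoters. No other gene of the 10 had either match. An ERSE with 1 letter of its CCACG part changed was found in 0.892% of promoters and, of the 10, in Hsp90b1, Herpud1 and Pdia4. The stretches from Herpud1 and Pdia4 are set beside those of Chac1 and Asns, genes of the amino acid type that hold the composite site.
Herpud1, ERSE-II (chr8:94386362-94386402, + strand): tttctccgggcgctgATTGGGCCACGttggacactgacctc
Herpud1, composite (chr8:94386302-94386339, + strand): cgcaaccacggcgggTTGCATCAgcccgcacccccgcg
Pdia4, changed ERSE (chr6:47813587-47813635, - strand): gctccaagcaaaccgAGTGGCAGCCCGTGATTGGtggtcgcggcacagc
Chac1, composite (chr2:119351034-119351071, + strand): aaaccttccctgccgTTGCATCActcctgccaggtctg
Asns, composite (chr6:7693214-7693243, - strand): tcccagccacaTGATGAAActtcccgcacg
The capitals of Herpud1 and Chac1 are the same 8 letters on the same strand. The composite was found in 8 of the 25 amino acid type genes with a promoter in the table, and the ERSE in 0 of them, with the 1-letter variant in Ddit3. Among other ER folding and ERAD genes the ERSE was found in 5 of 19 (Pdia6, Canx, Creld2, Syvn1 and Derl3). The element TGACGTGG, called UPRE, was in 0.676% of promoters and in none of the 10. None of these letters occur in the windows of Dnajb9, Xbp1, Sdf2l1 and Edem1.

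**Figure D1:**
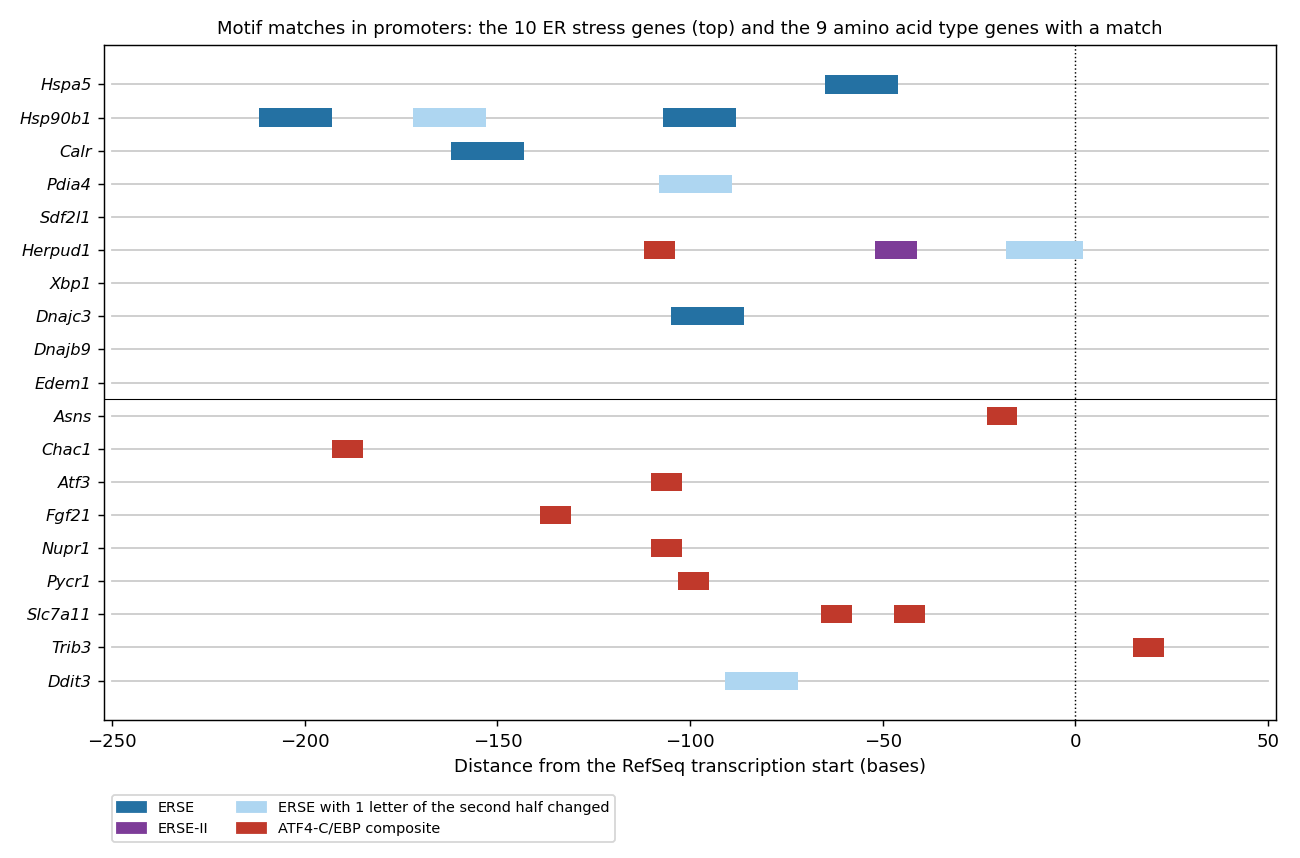
Motif matches (coloured blocks) along each promoter, with distance from the RefSeq start in bases on the x axis, for the 10 ER stress genes above the line and the 9 amino acid type genes with a match below it. Pale blocks are ERSE matches with 1 letter of the CCACG part changed, which Ddit3 holds below the line; Herpud1 is the gene above the line with a red block, the ATF4-C/EBP composite.

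Total counts ran from 44341283 to 113931419 per library, with each mate of a read pair counted. Mitochondrial genes took 3.79% to 4.0% of counts in Mock and Auxin and 4.58% to 4.8% in Re-introduction. Counts depended on gene length in a way that set the Mock libraries apart from the others. Per doubling of length, a library's deviation from the mean over all libraries was -0.25 to -0.17 (log2) in Mock. It was 0.15, 0.013 and 0.15 in Auxin replicates 1, 2 and 3, and 0.084 to 0.097 in Re-introduction. Embryonic stem cell markers summed to 5691 to 5802 normalised counts (CPM, counts scaled to library size) in Mock, 7409 to 7906 in Auxin and 5591 to 5658 in Re-introduction. In Auxin against Mock 38.4% of all genes tested were called higher and 34.8% lower. Of the 8 stem cell markers, 7 were called higher and 1 lower there. The lower was Pou5f1, with means of 843.7 CPM in Mock and 583 CPM in Auxin (log2 fold change -0.53). None of these 8 markers of the labelled cell type was at 0 in any group. Primitive endoderm markers summed to 27.88 to 29.18, 53.78 to 55.93 and 45.6 to 47.87 CPM in the same order, and all 8 were called higher in Auxin than in Mock. Fibroblast markers summed to 21.99 to 24.62, 44.19 to 53.52 and 41.03 to 42.26 CPM. Thy1 made up most of these sums, with means of 17.93 CPM in Mock and 41.22 CPM in Auxin. Of the 4 tested in that comparison, 2 had a call for a rise, 1 for a fall and 1 had no call. The fall was that of Col1a1, with means of 0.4181 CPM in Mock and 0.1517 CPM in Auxin. Col3a1, Dcn and Lum were at 0 counts in Auxin. Trophoblast markers summed to 74.1 to 78.55, 128.7 to 143.8 and 151.9 to 155.3 CPM. From Mock to Auxin, 4 of the 6 tested had a call for a rise and 2 for a fall. The largest rise in CPM was that of Tfap2c, with means of 27.24 in Mock and 86.61 in Auxin. The falls were those of Cdx2 (1.697 and 0.08248 CPM) and Eomes (35.37 and 25.64 CPM). Neural progenitor markers summed to 18.84 to 19.86, 14.07 to 14.37 and 17.34 to 18.64 CPM. The part of these marker and length differences in the results was not tested, apart from fits with the length trend, or the length and GC trends, removed. In bulk RNA, fewer cells of a type and less RNA per cell cannot be told apart.

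The 10 genes split evenly in Auxin. Relative to Mock, 5 were called higher and 5 lower. Over all genes tested, 38.4% were called higher and 34.8% lower in this comparison (edgeR quasi-likelihood test, Benjamini-Hochberg adjusted p under 0.05). The median log2 fold change of the 10 was -0.07, beside 0.05 over all genes, and it became 0.142 with scaling by total counts, which moved the median of all genes to 0.26. The share of called genes that were higher was 52.4%, and 63.3% with that scaling. The genes that fell were the chaperones and folding enzymes Hspa5, Hsp90b1, Calr and Pdia4, and the chaperone partner Sdf2l1. Those that rose were Herpud1, Dnajc3, Xbp1, Dnajb9 and Edem1.

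In Re-introduction, 7 of the 10 were higher than in Auxin, 1 (Herpud1) was lower and 2 (Xbp1 and Dnajb9) were not called. Over all genes 25.5% were called higher and 25.5% lower. Against Mock, 8 were higher, 1 (Herpud1) was lower and 1 (Calr) was not called, where 34.7% of all genes were called higher and 33.4% lower. The median of the 10 was 0.60 against Auxin and 0.70 against Mock, beside 0.00266 and 0.0263 over all genes. The 3 comparisons share libraries, so they are not independent of each other. The summed level of the 10 was 2762 to 2843 CPM in Mock, 1850 to 1926 in Auxin and 4121 to 4241 in Re-introduction, a sum carried mainly by Hspa5, Calr and Hsp90b1.

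Hspa5 (ENSMUSG00000026864.13, chr2:34771970-34777547, + strand, mm10) encodes BiP, the main Hsp70 chaperone of the ER lumen and a widely used readout of ER stress. Its level was 833.2, 793.5 and 802.1 CPM in the Mock libraries, 470.4, 470.7 and 452 CPM in the Auxin libraries and 1604, 1544 and 1606 CPM in the Re-introduction libraries. The Auxin libraries were all below Mock and the Re-introduction libraries all above it. The log2 fold change was -0.80 (SE 0.0501, adjusted p = 7.09e-08 in edgeR) for Auxin against Mock. For Re-introduction it was 1.77 against Auxin (SE 0.0513, adjusted p = 1.32e-09), a 3.41-fold rise, and 0.97 against Mock (SE 0.0502, adjusted p = 4.88e-08).

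Hsp90b1 (chr10:86690209-86705509, - strand) encodes GRP94, the Hsp90 of the ER. Its level was 570.5, 585.4 and 599.6 CPM in Mock, 399.5, 314.6 and 405 CPM in Auxin and 1027, 1004 and 988.7 CPM in Re-introduction. As for Hspa5, Auxin was the lowest group and Re-introduction the highest, with Auxin replicate 2 below its fellows. Log2 fold changes were -0.65 for Auxin against Mock (SE 0.0854, adjusted p = 3.33e-05), 1.43 for Re-introduction against Auxin (adjusted p = 2.5e-07) and 0.78 against Mock (adjusted p = 1.13e-05), the last 0.472 with length and GC trends removed and still called. Part of its exon sequence overlaps 1810014B01Rik, Gm15344 and Gm25745, and the counting did not use strand, so reads there cannot be assigned with certainty.

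Pdia4 (chr6:47796141-47813430, - strand), a protein disulfide isomerase, moved in the same order by less. It was at 392.1, 377 and 392.2 CPM in Mock, 259.9, 294.3 and 256.4 CPM in Auxin and 505.6, 511.6 and 514.6 CPM in Re-introduction. The log2 fold change was -0.52 for Auxin against Mock (adjusted p = 1.08e-05), 0.92 for Re-introduction against Auxin (adjusted p = 4.33e-07) and 0.40 against Mock (adjusted p = 0.000119). The first was -0.309 with scaling by total counts, still called. Its exons overlap those of Mir704.

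Calr (chr8:84841850-84846934, - strand) encodes calreticulin, the calcium-binding lectin chaperone that holds newly made glycoproteins. Its level was 898.2, 854.6 and 871.6 CPM in Mock, 479.7, 569.8 and 463.2 CPM in Auxin and 808.3, 770.3 and 801.5 CPM in Re-introduction. Unlike Hspa5, its Re-introduction libraries lay just below those of Mock. The log2 fold change was -0.79 for Auxin against Mock (adjusted p = 2.01e-06) and 0.65 for Re-introduction against Auxin (adjusted p = 2.9e-05). Against Mock it was -0.14 (SE 0.0742, adjusted p = 0.113), not called, although a fit of those 2 groups alone called it lower (-0.133, adjusted p = 0.0119).

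Sdf2l1 (chr16:17130138-17132383, - strand) encodes a small partner of ER Hsp40 proteins in the BiP cycle. It was at 28.11, 26.99 and 27.05 CPM in Mock, 14.96, 17.87 and 15.26 CPM in Auxin and 30.72, 31.99 and 30.15 CPM in Re-introduction. The 3 Auxin libraries were well below the other 6. Log2 fold changes were -0.77 for Auxin against Mock (adjusted p = 1.7e-06) and 0.95 for Re-introduction against Auxin (adjusted p = 1.27e-06). The fall in Auxin was still called but smaller with the length trend removed (-0.368, adjusted p = 5.7e-05) or length and GC trends removed (-0.277, adjusted p = 0.000296). The difference of 0.18 from Mock (adjusted p = 0.0441) lost its call under 10 of 16 alternative settings, among them each of the 6 fits that left out a Mock or Re-introduction library (adjusted p 0.0861, 0.155 and 0.153 without Mock replicates 1, 2 and 3, and 0.117, 0.131 and 0.0864 without Re-introduction replicates 1, 2 and 3). It was larger and called with the length trend removed (0.485), with length and GC trends removed (0.628) and with total counts (0.307).

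**Figure D2:**
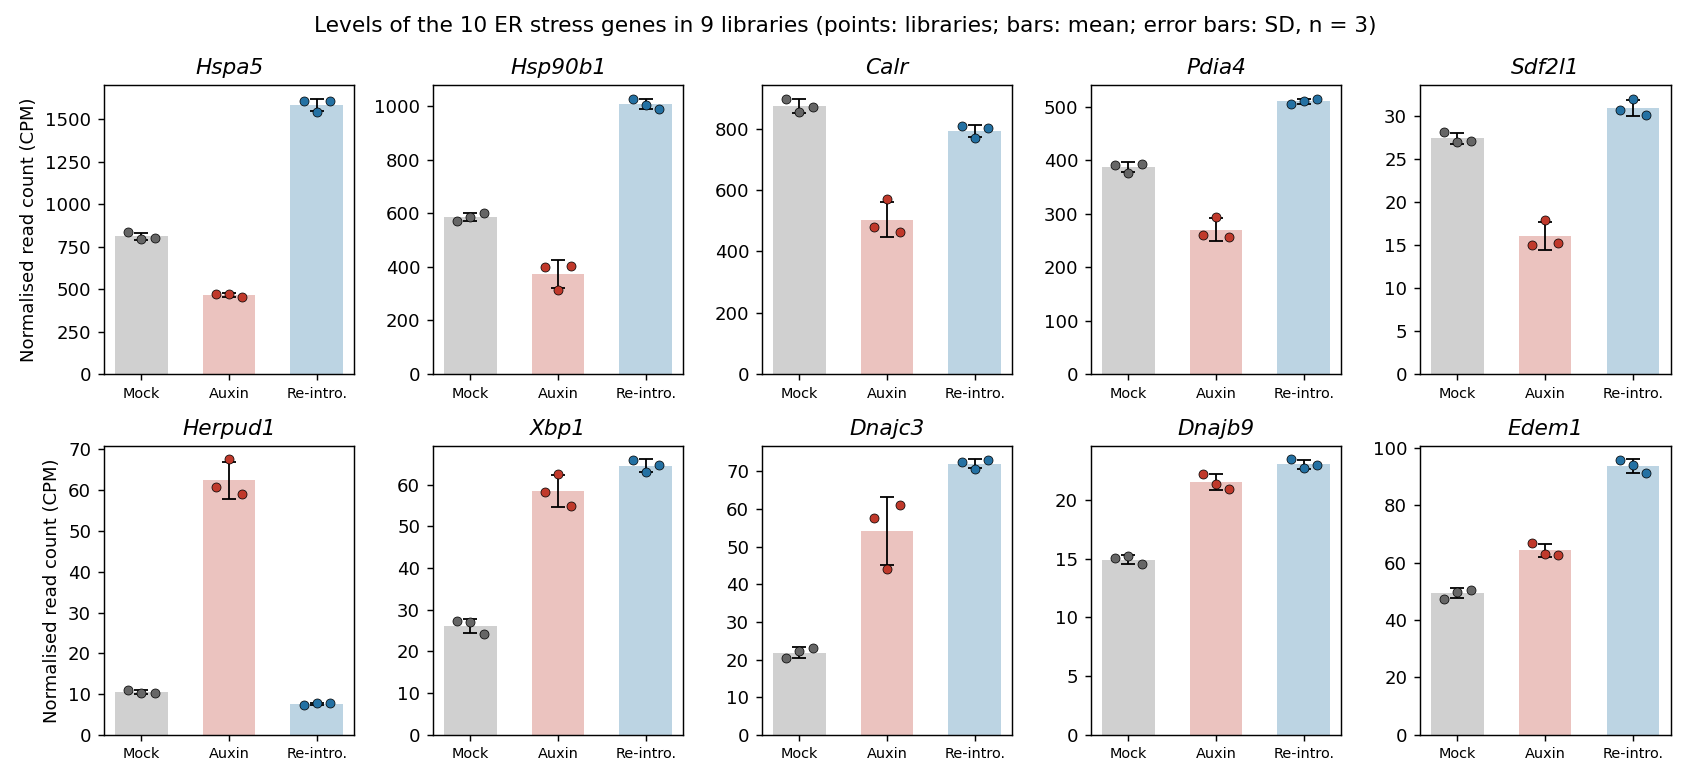
Normalised read counts (CPM, y axis from 0) of the 10 genes in Mock, Auxin and Re-introduction, with points for libraries, bars for means and error bars for the SD (n = 3). The upper row holds the 5 genes that were lower in Auxin than in Mock and the lower row the 5 that were higher.

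The other 5 genes encode co-chaperones, degradation factors and the transcription factor XBP1. Dnajc3 (chr14:118937932-118981702, + strand) encodes P58IPK, an Hsp40 partner of BiP in the lumen. Its level was 20.37, 22.16 and 23.08 CPM in Mock, 57.47, 43.98 and 61.16 CPM in Auxin and 72.37, 70.64 and 72.9 CPM in Re-introduction. It rose in Auxin. Its promoter holds a match to the ERSE, as do those of Hspa5, Hsp90b1 and Calr, which fell. Whether the element had a part in these changes was not tested. Log2 fold changes were 1.31 for Auxin against Mock (SE 0.105, adjusted p = 5.54e-07), 0.41 for Re-introduction against Auxin (adjusted p = 0.00645; 0.264, adjusted p = 0.00105, without Auxin replicate 2) and 1.72 against Mock (adjusted p = 1.67e-07).

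Dnajb9 (chr12:44205897-44210068, - strand) encodes ERdj4, an Hsp40 that also restrains IRE1. It was at 15.06, 15.21 and 14.53 CPM in Mock, 22.26, 21.35 and 20.96 CPM in Auxin and 23.46, 22.7 and 22.99 CPM in Re-introduction. The Mock libraries were the low ones. The log2 fold change was 0.53 for Auxin against Mock (adjusted p = 3.7e-06; 0.792 with the length trend removed) and 0.63 for Re-introduction against Mock (adjusted p = 1.72e-06). Re-introduction differed from Auxin by 0.10 (SE 0.053, adjusted p = 0.143), not called, and by -0.178 (adjusted p = 0.0348) with length and GC trends removed.

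Edem1 (chr6:108828641-108859356, + strand) encodes an ERAD factor that draws misfolded glycoproteins out of the folding cycle. It was at 47.29, 49.89 and 50.61 CPM in Mock, 67.01, 63.11 and 62.69 CPM in Auxin and 95.65, 94.2 and 91.13 CPM in Re-introduction. Each group lay above the one before it. The log2 fold change of 0.38 for Auxin against Mock (SE 0.0517, adjusted p = 4.04e-05) was no longer called with the length trend removed (0.106, adjusted p = 0.0598) or with length and GC trends removed (0.0667, adjusted p = 0.166), and was 0.593 with total counts. It was 0.54 for Re-introduction against Auxin (adjusted p = 7.2e-06) and 0.93 against Mock (adjusted p = 8.33e-08).

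Xbp1 (chr11:5520659-5525893, + strand) encodes the transcription factor whose mRNA is spliced by IRE1. Counts per gene do not separate the spliced from the unspliced form. The gene was at 27.2, 27.08 and 24.26 CPM in Mock, 58.35, 62.56 and 54.79 CPM in Auxin and 66.02, 62.95 and 64.64 CPM in Re-introduction. Both treated groups were above Mock, with log2 fold changes of 1.16 (adjusted p = 3.42e-08) in Auxin and 1.30 (adjusted p = 4.36e-08) in Re-introduction. Re-introduction against Auxin gave 0.14 (SE 0.0649, adjusted p = 0.0944), not called. It was called with length and GC trends removed (0.197, adjusted p = 0.00416) and without Auxin replicate 2 (0.175, adjusted p = 0.018).

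Herpud1 (chr8:94386438-94395377, + strand) encodes a membrane protein of the ERAD complex. It had the largest log2 fold changes of the 10 both in Auxin against Mock and in Re-introduction against Auxin. Its level was 10.95, 10.29 and 10.28 CPM in Mock, 60.7, 67.53 and 58.94 CPM in Auxin and 7.34, 7.707 and 7.843 CPM in Re-introduction. The Auxin libraries stood far above all others, and the Re-introduction libraries were below Mock. Log2 fold changes were 2.57 for Auxin against Mock (SE 0.0679, adjusted p = 1.85e-10), 5.94-fold, then -3.03 for Re-introduction against Auxin (SE 0.0703, adjusted p = 3.99e-10) and -0.46 against Mock (adjusted p = 0.000118; -0.204, adjusted p = 0.0026, with length and GC trends removed).

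**Figure D3:**
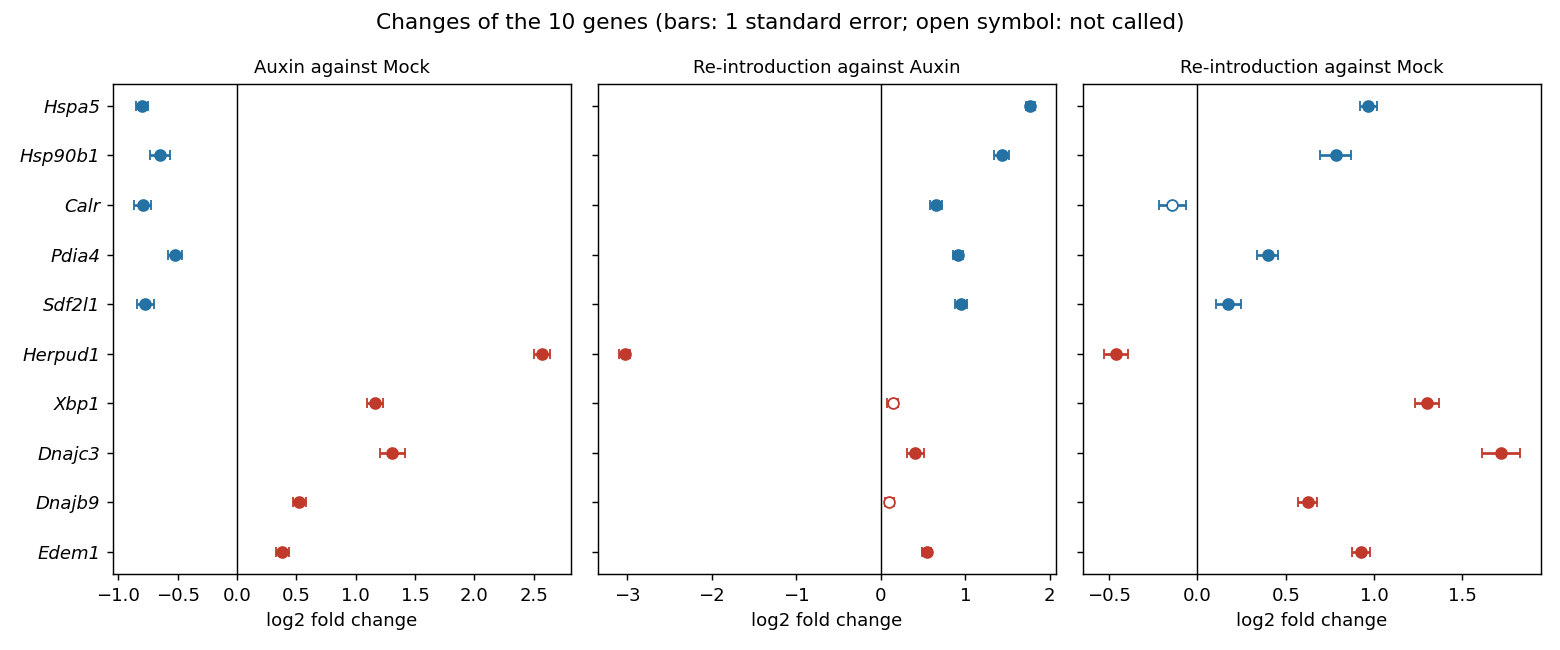
Log2 fold changes (x axis) of the 10 genes in the 3 comparisons, with bars of 1 standard error and open symbols for changes that were not called. Blue genes were lower in Auxin than in Mock and red genes higher; Herpud1 lies at 2.57 and then at -3.03.

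Levels can be compared between genes only per exon length, as CPM per kilobase. In Mock the order was Calr (303.7), Hspa5 (191.4), Pdia4 (161.3), Hsp90b1 (145.1) and Sdf2l1 (24.72), the 5 genes that were lower in Auxin. Below them came Xbp1 (8.059), Dnajb9 (8.009) and Edem1 (7.634), whose library ranges overlapped from neighbour to neighbour, and then Herpud1 (4.503) and Dnajc3 (4.214), which overlapped too. In Auxin, Herpud1 (26.74) and Xbp1 (18.03) were above Sdf2l1 (14.47), with no overlap, and Pdia4 (112.7) and Hspa5 (109.8) overlapped behind Calr. In Re-introduction Hspa5 (374.7) was above Calr (275.5), and Herpud1 (3.271) was the lowest of the 10.

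The sensors of the response and the proteases that process ATF6 were mostly higher in Auxin. Against Mock 5 of these 6 genes were called higher and 1 lower, and 3 higher with the length trend removed. Over all genes tested, 38.4% were called higher and 34.8% lower in this comparison. The median log2 fold change of the 6 was 0.55, and 0.229 with the length trend removed. Ern1, which encodes IRE1, was at 8.075, 9.03 and 8.365 CPM in Mock, 22.28, 19.88 and 21.75 CPM in Auxin and 14.63, 16.35 and 15.83 CPM in Re-introduction. The groups did not overlap, and the log2 fold changes were 1.33 (adjusted p = 2.63e-08) for Auxin against Mock, -0.45 (adjusted p = 0.000329) for Re-introduction against Auxin and 0.88 against Mock (adjusted p = 1.5e-06; 0.478 with the length trend removed). Atf6 gave 1.17 (adjusted p = 9.55e-09), -0.66 (adjusted p = 3.03e-06) and 0.51 (adjusted p = 1.13e-05) in the same order, with 0.725 for the first and no call for the last (0.0528, adjusted p = 0.366) once the length trend was removed. Eif2ak3, which encodes PERK, rose by 0.60 in Auxin (adjusted p = 2.9e-06) and differed by 0.48 between Re-introduction and Mock (adjusted p = 3.01e-05), or by 0.357 and 0.226 with the length trend removed, both called.

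The remaining sensor genes gave smaller values that depended on the correction for length. Mbtps1 and Mbtps2, the proteases that cleave ATF6, were at 0.19 and 0.50 in Auxin against Mock (adjusted p = 0.00559 and 0.00503), and the Mbtps2 libraries overlapped. With the length trend removed they were at 0.1 (adjusted p = 0.0858) and -0.000533 (adjusted p = 0.996). In Re-introduction against Auxin Mbtps1 was at -0.13 (adjusted p = 0.0575), and was called with the length trend removed (-0.141, adjusted p = 0.0306) and under 5 other alternatives, among them the fits without Auxin replicate 2 (adjusted p = 0.0493) or 3 (adjusted p = 0.0324). Atf6b was at -0.12 (adjusted p = 0.0433), a call lost under 10 of 16 alternatives, among them the fits without Mock replicate 1 or 3 (adjusted p = 0.0788 and 0.0606) and without Auxin replicate 1 or 3 (adjusted p = 0.0719 and 0.144), and reversed under 2 others. Of the other kinases of eIF2alpha, Eif2ak4 (GCN2) rose by 0.49 in Auxin (adjusted p = 1.47e-05), or by 0.142 with the length trend removed (adjusted p = 0.0433), and Eif2ak1 fell by 0.63 (adjusted p = 1.06e-06). Eif2ak2 was at -0.27 (adjusted p = 0.16), not called. It was called lower under 3 of 16 alternatives: with the length trend removed (-0.442, adjusted p = 0.0207), with length and GC trends removed (-0.527, adjusted p = 0.00375) and without Auxin replicate 3 (-0.456, adjusted p = 0.0186). In Re-introduction Eif2ak2 was 0.77 above Auxin (adjusted p = 0.00249 in edgeR) and 0.50 above Mock (adjusted p = 0.0184 in edgeR). The call against Mock was lost under 5 of 16 alternatives. In Re-introduction against Mock, Eif2ak4 was at 0.64 (adjusted p = 2.98e-06) and Eif2ak1 at -0.43 (adjusted p = 4.19e-05), or at 0.283 and -0.647 with the length trend removed, both called. These are levels of mRNA, and kinase activity was not measured.

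Of 25 other ER folding and ERAD genes, 10 were higher, 9 lower and 6 not called in Auxin against Mock. These shares, 40% and 36%, are near the 38.4% and 34.8% of all genes. The median log2 fold change was -0.03, and its sign depended on the setting: it was 0.183 with total counts and 0.042 with a filter of 1 CPM. The largest changes were those of Sel1l, the scaffold of an ERAD ubiquitin ligase (1.49, adjusted p = 5.38e-09), and Manf, a secreted ER stress protein (-1.43, adjusted p = 7.04e-08). Manf was at 86.07, 77.33 and 77.72 CPM in Mock and 28.43, 34.27 and 26.72 CPM in Auxin. Its exons overlap those of 4930524O07Rik, Dcaf1 and Rbm15b. The oxidases Ero1l (1.17, adjusted p = 5.7e-08) and Ero1lb (1.13, adjusted p = 1.31e-06), which supply disulfide bonds, both rose.

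In Re-introduction against Auxin 14 of these 25 were higher and 8 lower, 56% and 32% beside 25.5% and 25.5% of all genes, with a median of 0.23 (0.148 with total counts). Derl3, an ERAD channel component, rose by 1.98 (adjusted p = 1.65e-05) from a low level of 0.8034 to 1.469 CPM in Auxin to 3.909 to 4.388 CPM. Manf rose by 1.85 (adjusted p = 4.73e-08), the disulfide isomerase Pdia6 by 1.13 (adjusted p = 3.34e-07) and Creld2 by 1.05 (adjusted p = 2.21e-06). The 8 called lower became 5 without Re-introduction replicate 1, without replicate 2 and with a term for the replicate number. Against Mock, 14 were higher and 5 lower, 56% and 20% beside 34.7% and 33.4% of all genes, led by Ero1lb (1.52, adjusted p = 2.75e-07), Derl3 (1.51, adjusted p = 5.06e-05) and Edem3 (1.502, adjusted p = 1.24e-05).

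The amino acid type genes moved in 1 direction in each of the first 2 comparisons. All 28 were called higher in Auxin than in Mock, with a median log2 fold change of 1.88. Of all genes, 38.4% were higher and 34.8% lower there. All 28 were called lower in Re-introduction than in Auxin, with a median of -1.95, beside 25.5% higher and 25.5% lower of all genes. Their summed level was 2234 to 2398 CPM in Mock, 5968 to 6893 in Auxin and 2157 to 2259 in Re-introduction. Against Mock, Re-introduction had 10 higher, 14 lower and 4 not called. The shares, 35.7% higher and 50% lower, stand beside 34.7% and 33.4% of all genes. The median for Auxin against Mock was 1.881 with Fgf21 at its lower bound.

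Chac1, which degrades glutathione, was at 0.99, 0.7243 and 0.6994 CPM in Mock, 60.26, 73.33 and 60.37 CPM in Auxin and 0.4392, 0.245 and 0.2818 CPM in Re-introduction. The Auxin libraries were far above both other groups, with log2 fold changes of 6.30 (adjusted p = 1.36e-10) against Mock and -7.59 (adjusted p = 3.99e-10) on Re-introduction. Herpud1 moved in these directions too, whereas Hspa5 moved in the opposite ones. The hormone gene Fgf21 had 0 counts in Mock and 141 over the Auxin libraries, at least 53.3-fold higher against a floor of 3 counts over the group, which covers counting error only. Stc2 rose by 6.16 in Auxin (adjusted p = 1.64e-10) and the transcription factor Atf3 by 5.92 (adjusted p = 2.99e-10). In Re-introduction Ddit4 fell by 4.65 relative to Auxin (adjusted p = 1.07e-08), while Atf5 was still 2.62 above Mock (adjusted p = 2.19e-09).

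**Figure D4:**
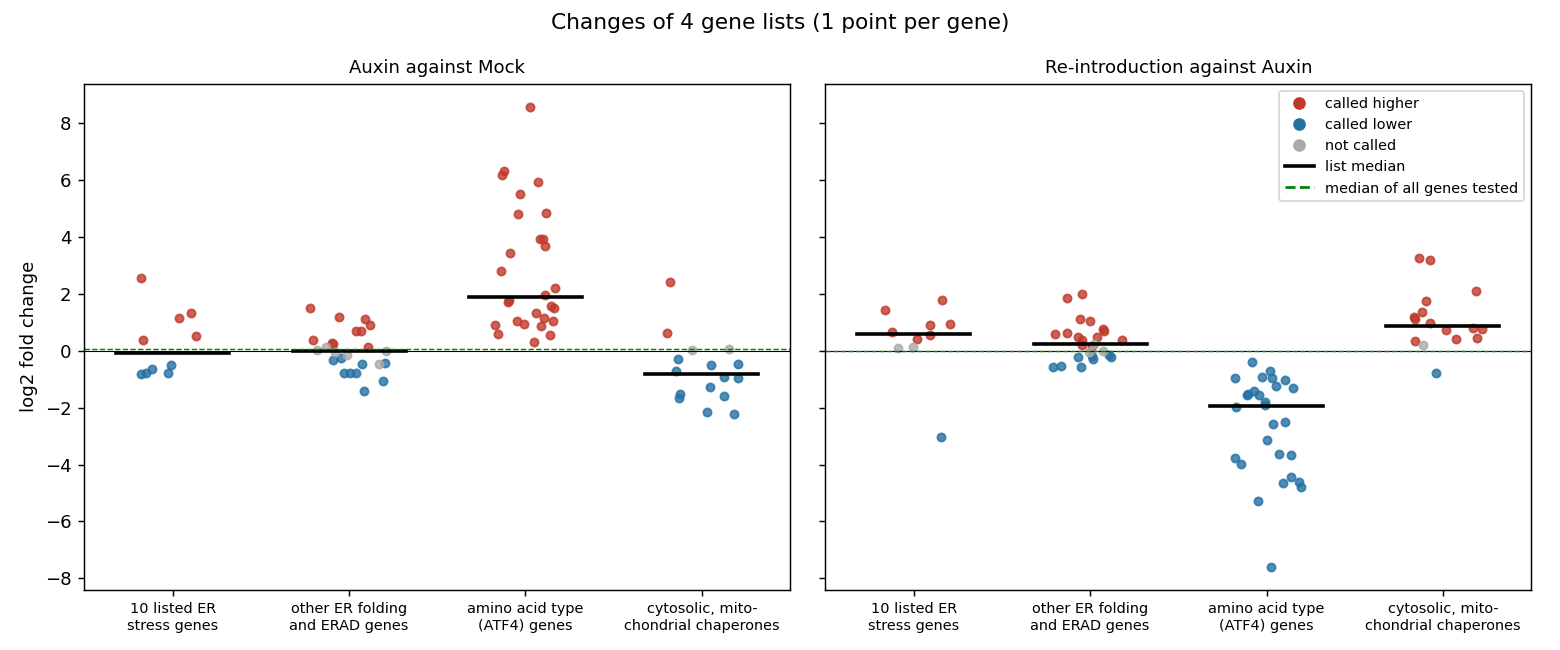
Log2 fold changes (y axis) of each gene in 4 lists for Auxin against Mock and Re-introduction against Auxin, coloured by call, with black lines for list medians and a green line for the median of all genes tested. The 28 amino acid type genes lie on 1 side of 0 in each panel and the 10 ER stress genes on both; the top point, Fgf21, has 0 counts in Mock and its height depends on the prior count.

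Most chaperone genes outside the ER were lower in Auxin. Of 16 cytosolic and mitochondrial chaperone genes, 12 were lower, 2 higher and 2 not called in Auxin against Mock (median -0.83), where 34.8% of all genes were lower and 38.4% higher. In Re-introduction against Auxin 14 were higher and 1 lower (median 0.88), beside 25.5% and 25.5% of all genes. Scaling by total counts made the number higher in Auxin 4. Hspa8, the constitutive cytosolic Hsp70, was at 1837 to 1911 CPM in Mock, 547.2 to 675.4 in Auxin and 2505 to 2577 in Re-introduction. It fell by 1.65 in Auxin (adjusted p = 7.28e-09) and rose by 2.08 in Re-introduction (adjusted p = 6.9e-09). The heat-inducible pair Hspa1a and Hspa1b fell by 2.16 and 2.21 and rose by 3.19 and 3.27, but the 2 genes are nearly identical and their counts are uncertain. Hspa4l rose by 2.40 in Auxin (adjusted p = 4.56e-09), against the direction of most of the list.

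The likeness of other genes to Hspa5 was ranked over 10360 genes whose average level reached 10 CPM. The 5 outside all lists with the highest Pearson correlation of log2 CPM over the 9 libraries were Fgfbp1 (r = 0.9974), Msmo1 (0.9971), Sqle (0.9971), Hmgcs1 (0.9935) and Kit (0.9929). These 5 were also the first 5 of the whole ranking, and the first gene from any list, the cytosolic chaperone Hsph1, came at rank 10 (r = 0.9915). Msmo1, Sqle and Hmgcs1 encode enzymes of cholesterol synthesis. Hmgcs1 was at -1.35 in Auxin against Mock and 2.53 in Re-introduction against Auxin on the log2 scale, Sqle at -0.75 and 1.59. Of the 10 genes, Hsp90b1 and Pdia4 each had r = 0.983 with Hspa5, Sdf2l1 0.9072, Calr 0.7222, Edem1 0.6223, Dnajc3 0.281, Dnajb9 0.202, Xbp1 0.1548 and Herpud1 -0.9038. The 9 points share their libraries and fall into 3 groups, so these values describe the group means more than any finer variation.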

How the data were processed

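The 9 libraries were measured by poly(A) RNA sequencing (TruSeq v2, paired-end, NextSeq 500, per the labels). The authors deposited raw read counts per gene, made with featureCounts 2.0.6 over exons of an mm10 annotation, per the file headers, with no strand setting and with mates not joined into fragments. Trim Galore 0.6.10, FastQC 0.12.1, Bowtie2 2.5.3 and SAMtools 1.20 are named in the submitters' processing notes without their roles. Symbols were matched by gene identifier (48058 of 48440 genes). Exon sequence was shared with another gene in 9924 genes, among them Hsp90b1, Pdia4, Manf, Pdia6, Atf5, Eif2ak1, Eif2ak2, Eif2ak3, Mbtps2, Hspa1a and Hspa8. Reads there cannot be assigned with certainty.

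Counts were filtered with filterByExpr and scaled with TMM factors (0.905 to 1.08). A single quasi-likelihood fit of the 9 libraries (edgeR 4.0.16, limma 3.58.1, R 4.3.3) had group as its term. Two-sided p-values were adjusted by Benjamini-Hochberg over the 20838 genes tested, and genes were called under 0.05. SEs were derived from the F statistic. The script was tested on simulated data. DESeq2 1.42.0 was an alternative, beside other scalings and filters, fits of the 2 groups alone, the replicate block, length and GC corrections, halved counts and leaving out each library.

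The text draws its named genes from the 10 genes, all sensors and eIF2alpha kinases, and the 5 genes most like Hspa5. It also draws on up to 4 called genes of each other list with the largest change. Not every gene so picked is named, or given in every comparison. The 10 genes and the lists were chosen with earlier results of these data known.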

Additional observations from a re-analysis of the deposited data

How the results depend on the processing

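The counts of the 10 genes called higher and lower were within 1.5 times their main value under the 16 alternatives of each comparison, with 2 exceptions. In Re-introduction against Auxin, 2 rather than 1 were lower with length and GC trends removed, the second being Dnajb9. In Re-introduction against Mock, 2 rather than 1 were lower when only those 2 groups were fitted, the second being Calr. Leaving out 1 library at a time gave 5 higher and 5 lower in Auxin against Mock, 7 to 8 higher and 1 lower in Re-introduction against Auxin, and 7 higher and 1 lower in Re-introduction against Mock. Among single genes, the log2 fold changes that changed sign were those of Dnajb9 (-0.178, length and GC, Re-introduction against Auxin) and of sensor genes. Atf6b became 0.0857 (total counts) and 0.121 (length and GC, adjusted p = 0.0201 in edgeR) in Auxin against Mock. It became -0.00123 (total counts) in Re-introduction against Auxin. In Re-introduction against Mock it became 0.0845 (total counts), 0.0312 (length) and 0.166 (length and GC, adjusted p = 0.00427 in edgeR). Mbtps2 became -0.000533 (length) and -0.113 (length and GC) in Auxin against Mock. In Re-introduction against Auxin it became 0.0265 and 0.0724 without Auxin replicates 1 and 3 (-0.216 without replicate 2). In Re-introduction against Mock its main value was 0.467 (adjusted p = 0.00865 in edgeR). There it became -0.0391 (length) and -0.336 (length and GC), the last called lower (adjusted p = 0.000191 in edgeR). Mbtps1 became -0.0411 (length) in Re-introduction against Mock. In Auxin against Mock the median of the 10 genes (-0.0674) became 0.142 with total counts and 0.0024 with the 1 CPM filter, and that of the other ER genes (-0.0271) became 0.183 and 0.042, and also passed 0 with only the 2 groups fitted (0.00533), with halved counts (0.00819) and without Auxin replicate 1 (0.00322). The cause was not tested. Replicate numbers did not pair the libraries: same-numbered libraries of 2 groups had correlations of -0.14 to 0.039, and a library correlated best with its own number in 4 of 18 cases. With the replicate block, 14808, 9829 and 13639 genes were called in Auxin against Mock, Re-introduction against Auxin and Re-introduction against Mock, the other ER genes called lower in Re-introduction against Auxin went from 8 to 5, and Sdf2l1 lost its call against Mock (0.175, adjusted p = 0.0561). Each mate is counted, so independent fragments are fewer than the totals.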
